A study of Homo sapiens with 6 samples.

Results

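The 10 genes described here, CDK1, CCNA2, CCNB1, CCNB2, CDC25A, CDC25B, CDC25C, WEE1, FOXM1 and MYBL2, encode the kinase that starts mitosis, its cyclin partners, the enzymes that switch it on or off and a pair of transcription factors that drive late cell cycle genes. They were chosen by gene symbol, and every array probe whose RefSeq accession belongs to one of them was used. That gave 12 probes of the 58201 gene probes on the array, printed at 30 of the 60901 gene spots, and all 10 genes had at least 1 probe. In cells given an siRNA against C1GALT1, transcripts of CDK1, CCNA2, WEE1 and FOXM1 fell to between 41.9% and 47.2% of their level in control cells. A further 5 of the 10 genes had lower means without passing the test at their brightest probe, and CDC25B alone had a higher mean, also without passing it. That test used unadjusted limma p-values, and no member reached an adjusted p of 0.05. Among the brightest probes, only that of WEE1 passed when samples were paired by replicate number.

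Cells enter mitosis when CDK1, bound to a B-type cyclin, loses the inhibitory phosphates that WEE1 places on it and that CDC25 phosphatases remove. Cyclin A, encoded in somatic cells by CCNA2, acts earlier, through S phase and G2. Many genes of this circuit, though not all, are transcribed in a wave in late S phase and G2. MYBL2 (B-Myb) and FOXM1 act with the MuvB complex at the promoters of such genes, whose transcript levels are often read as a measure of proliferation. In RNA from a whole culture, a smaller share of cells in G2 and M phases and less transcript per cell cannot be told apart.

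The cells were AGS, an established human gastric adenocarcinoma line, harvested 48 h after transfection with si-control, which targets no gene, or with a single siRNA, si-C1GALT1-3, against C1GALT1, the galactosyltransferase that builds the core 1 structure of mucin-type O-glycans. There were 3 samples per group and 1 single-colour Agilent array per sample, with values given as log2 of the processed fluorescence intensity after quantile normalization. Samples with the same replicate number lay on 1 slide, each group always at the same array position, which differed from that of the other group, so array position and siRNA cannot be told apart. The labels do not say whether replicates were separate cultures, so p-values measure only the spread between these samples, and with 1 siRNA an effect of that siRNA on other transcripts cannot be told apart from that of losing C1GALT1.

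The share of gene spots well above background was 66.2% on the lowest array and 72.7% on the highest, and no gene spot was saturated. On the array of si-control replicate 2, a central rectangle holding 15.9% of gene spots was set to missing because many of its spots were far too dim. Well above background on that array were 66.2% of all gene spots and 71.9% of those outside the rectangle. The masking removed the only CCNB2 spot and 1 of the 2 CCNB1 spots of that array. All 5 epithelial markers checked were well above background on all 6 arrays, as were 2 of 3 endothelial markers (VWF and CDH5) wherever measured, with VWF differing by -1.03 on the log2 scale. Of 4 fibroblast markers, COL1A1 was well above background wherever measured, at mean log2 signals of 10.30 and 10.25, DCN on 1 array, and COL1A2 and LUM on none. Of 4 leukocyte markers, 3 were well above background on all 6 arrays, with PTPRC at mean log2 signals of 13.97 and 13.64 in si-control and si-C1GALT1-3. The summed log2 level of the leukocyte list ran from 13.66 to 14.38 in si-control and from 13.61 to 13.77 in si-C1GALT1-3, and its part in the results below was not tested.

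C1GALT1 itself served as the check of the knockdown. The log2 signal of its probe (A_23_P252145, NM_020156) was 12.22, 13.03 and 12.62 in si-control replicates 1 to 3 and 11.76, 11.98 and 11.13 in si-C1GALT1-3. The highest si-C1GALT1-3 value was below the lowest si-control value, and the mean was 49.99% of control. The difference of -1.0 ± 0.31 (log2, SE) did not pass the threshold used throughout, an unadjusted limma p under 0.01 with at least a 2-fold change (limma, adjusted p = 0.265), but passed when probes near background were left out of the fit (limma, adjusted p = 0.151).

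At that threshold, 4 of the 10 mitotic entry genes were lower, where 0.991% of the 58195 probes tested were. None of the 10 was higher, where 1.65% of all probes were; in that direction no member reached an unadjusted p under 0.05 with limma or with Student's test per probe, though CDC25B did in limma with the slide as a block and in limma without si-control replicate 2. The fitted difference was below 0 for 9 of the 10, against 50.9% of all probes. In 8 of the 10 the groups did not overlap, with the si-C1GALT1-3 arrays all lower, as in 10.4% of all probes. The median difference of the 10 genes was -1.10 on the log2 scale, and that of all probes was -0.00. No member passed a Benjamini-Hochberg adjusted p of 0.05 over all probes with limma or Student's test, although 8 had an unadjusted limma p under 0.05. With the slide as a replicate block, 1 of the 10 passed the threshold, which was WEE1.

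**Figure D1:**
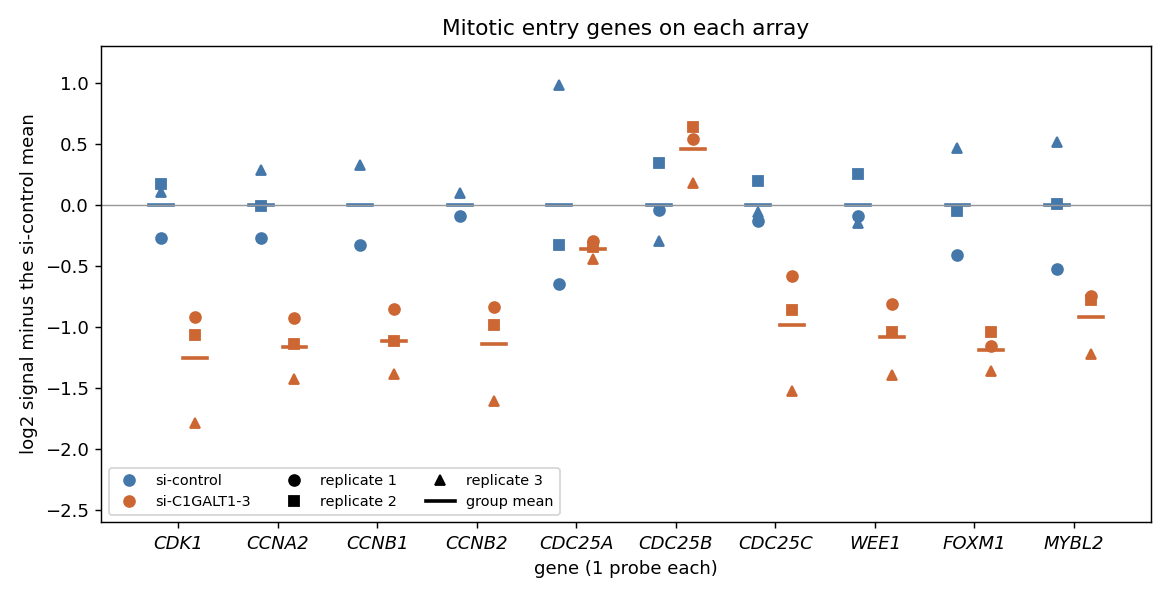
Log2 signal of each mitotic entry gene on each array, minus the mean of its si-control arrays, for 1 probe per gene (blue, si-control; orange, si-C1GALT1-3; symbols, replicate numbers; bars, group means). In 8 of the 10 genes the orange points all lie below the blue points, while those of CDC25A and CDC25B overlap; CCNB1 and CCNB2 have no value for si-control replicate 2.

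CDK1 is the cyclin-dependent kinase whose activation starts mitosis. Its brighter probe (A_23_P138507, NM_001786) read 13.19, 13.64 and 13.58 in si-control replicates 1 to 3 and 12.55, 12.40 and 11.68 in si-C1GALT1-3. The groups did not overlap, and si-C1GALT1-3 replicate 3 was the lowest array. CDK1 fell by 1.26 on the log2 scale, with a 95% interval of -1.94 to -0.57, to 41.9% of control (limma, adjusted p = 0.164). With the slide as a replicate block the same difference no longer passed (limma, adjusted p = 0.223).

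This probe was printed at 10 places on each array, of which 3 lay in the masked rectangle. At the 7 places outside it, all 7 spots were lower in si-C1GALT1-3, by between -1.34 and -1.08 on the log2 scale, and the SD between the spots of 1 array was 0.0490 to 0.150. The spread between CDK1 spots on an array was thus smaller than that between arrays of a group, whose SD was 0.241 in si-control and 0.463 in si-C1GALT1-3. Inside the rectangle the processed intensity on si-control replicate 2 ran from 68.1 to 10380, and outside it from 10476 to 13087.

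The other CDK1 probe (A_21_P0000076) carries the accession NM_001170406, a different transcript of the gene, and was dim. It read 6.78, 7.75 and 6.68 in si-control and 6.14, 6.08 and 4.18 in si-C1GALT1-3, and in the latter group only 2 of the 3 arrays had it well above background. These groups did not overlap either, but the difference of -1.61 ± 0.62 (log2, SE) did not pass the threshold (limma, adjusted p = 0.343).

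CCNA2 encodes cyclin A2, the partner of CDK2 in S phase and of CDK1 in G2. Its probe (A_23_P58321, NM_001237) read 12.17, 12.42 and 12.72 in si-control and 11.51, 11.30 and 11.01 in si-C1GALT1-3, with no overlap. CCNA2 fell by 1.16 on the log2 scale, with a 95% interval of -1.70 to -0.63, to 44.6% of control (limma, adjusted p = 0.131). In the fit with the replicate block it did not pass (limma, adjusted p = 0.215). This probe too had 10 spots per array, and all 8 outside the masked rectangle were lower, by -1.26 to -1.04, with SDs of 0.0457 to 0.184 between the spots of 1 array. The 2 CCNA2 spots inside the rectangle read only 8.65 and 23.0 on si-control replicate 2, while those outside read 3913 to 5939.

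**Figure D2:**
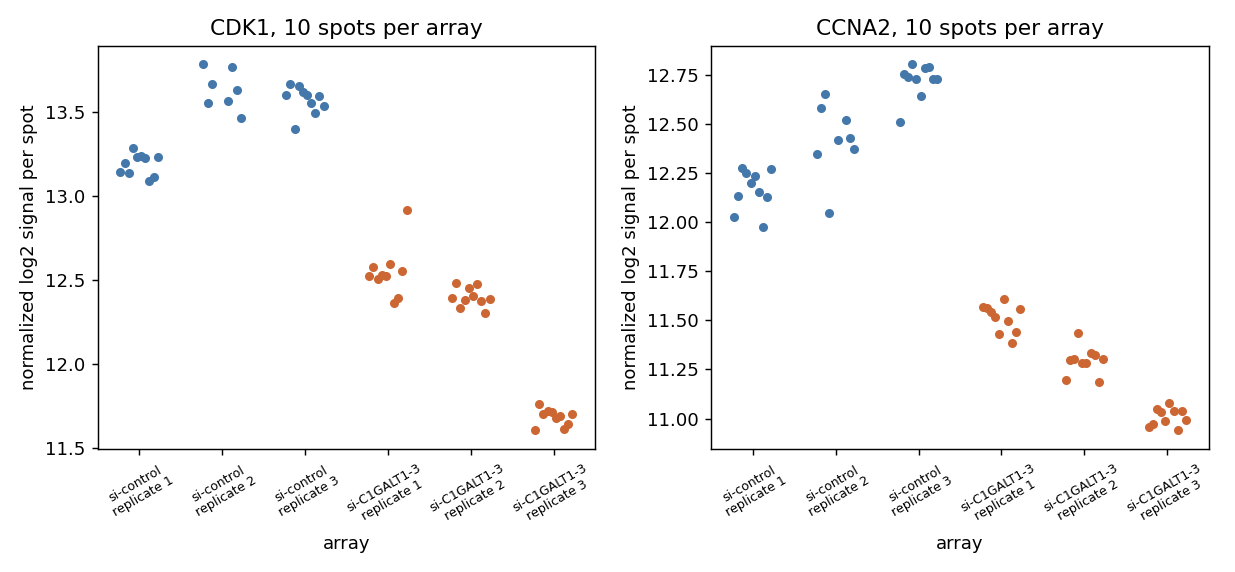
Normalized log2 signal of every CDK1 and CCNA2 spot kept on each of the 6 arrays (blue, si-control; orange, si-C1GALT1-3), with 7 CDK1 and 8 CCNA2 spots kept on si-control replicate 2 and 10 of each elsewhere. Spots of 1 array lie close together, and every si-C1GALT1-3 spot lies below every si-control spot of the same gene.

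CCNB1 encodes cyclin B1, the main mitotic partner of CDK1, and was measured by a pair of probes on the same transcript record, NM_031966. The brighter one (A_23_P122197) read 13.59 and 14.25 in si-control replicates 1 and 3 and 13.07, 12.81 and 12.54 in si-C1GALT1-3. Its si-control replicate 2 spot fell in the masked rectangle, and the difference of -1.12 ± 0.29 (log2, SE) on 5 arrays missed the threshold (limma, adjusted p = 0.233). Without masking, the difference was -0.97 ± 0.28 and missed it too (limma, adjusted p = 0.363). The second probe (A_33_P3401621) lies outside the rectangle and had all 6 values. It read 10.47, 10.77 and 10.26 in si-control and 9.49, 9.54 and 9.34 in si-C1GALT1-3, again without overlap. By this probe CCNB1 fell by 1.04 on the log2 scale, to 48.7% of control, and passed (limma, adjusted p = 0.116), as it did with the replicate block. The count of 4 genes above uses the brighter probe and so leaves CCNB1 out.

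CCNB2 encodes cyclin B2, a second B-type partner of CDK1. Its only probe (A_23_P65757, NM_004701) read 11.08 and 11.26 in si-control replicates 1 and 3 and 10.33, 10.19 and 9.56 in si-C1GALT1-3, and these groups did not overlap. The difference was -1.14 ± 0.29 (log2, SE) on 5 arrays and did not pass (limma, adjusted p = 0.224). With the masked spot put back, the CCNB2 difference turned to 1.46 ± 2.24, an error larger than the difference itself.

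The 3 CDC25 phosphatases, which remove the inhibitory phosphates from cyclin-dependent kinases, had fitted differences of both signs, and none passed the threshold. CDC25C, the form most closely tied to mitotic entry (A_23_P70249, NM_001790), read 9.76, 10.09 and 9.83 in si-control and 9.31, 9.03 and 8.37 in si-C1GALT1-3. Its groups did not overlap, and the difference was -0.99 ± 0.27 (log2, SE; limma, adjusted p = 0.228).

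CDC25A, which also acts at the start of S phase (A_24_P397107, NM_001789), read 10.62, 10.94 and 12.25 in si-control and 10.97, 10.93 and 10.82 in si-C1GALT1-3. Its groups overlapped, and si-control replicate 3 stood above the other 5 arrays. The difference was -0.36 ± 0.43 with that array and 0.13 ± 0.17 without it (log2, SE; limma, adjusted p = 0.773 in both fits), so its sign rested on that array.

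CDC25B, the form held to start CDK1 activation (A_23_P210726, NM_021873), read 13.28, 13.66 and 13.02 in si-control and 13.86, 13.96 and 13.50 in si-C1GALT1-3. The groups overlapped, since si-control replicate 2 was above si-C1GALT1-3 replicate 3. The difference was 0.45, with a 95% interval of -0.11 to 1.01 (limma, adjusted p = 0.451). Within each of the 3 slides the si-C1GALT1-3 array was the higher one, by 0.58, 0.30 and 0.48, and with the replicate block CDC25B reached an unadjusted limma p under 0.05 but did not pass (limma, adjusted p = 0.244).

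WEE1, the kinase that holds CDK1 inactive, fell together with its substrate. Its probe (A_33_P3290567, NM_003390) read 12.68, 13.02 and 12.62 in si-control and 11.96, 11.73 and 11.38 in si-C1GALT1-3, with no overlap. WEE1 fell by 1.08 on the log2 scale, with a 95% interval of -1.60 to -0.56, to 47.2% of control (limma, adjusted p = 0.140). It was the member that also passed with the replicate block (limma, adjusted p = 0.187).

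FOXM1, a forkhead transcription factor of late cell cycle genes (A_23_P151150, NM_202002), read 11.71, 12.08 and 12.59 in si-control and 10.97, 11.08 and 10.77 in si-C1GALT1-3. The groups did not overlap, and the si-control arrays spread more widely (SD 0.441) than the si-C1GALT1-3 arrays (SD 0.161). FOXM1 fell by 1.19 on the log2 scale, with a 95% interval of -1.82 to -0.56, to 43.9% of control (limma, adjusted p = 0.157). With the replicate block FOXM1 did not pass (limma, adjusted p = 0.218).

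MYBL2, which joins the MuvB complex in S phase and precedes FOXM1 there (A_23_P143190, NM_002466), read 13.58, 14.11 and 14.62 in si-control and 13.36, 13.32 and 12.89 in si-C1GALT1-3. Its lowest si-control value was only slightly above its highest si-C1GALT1-3 value. The difference was -0.92 ± 0.30 (log2, SE) and did not pass (limma, adjusted p = 0.288).

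**Figure D3:**
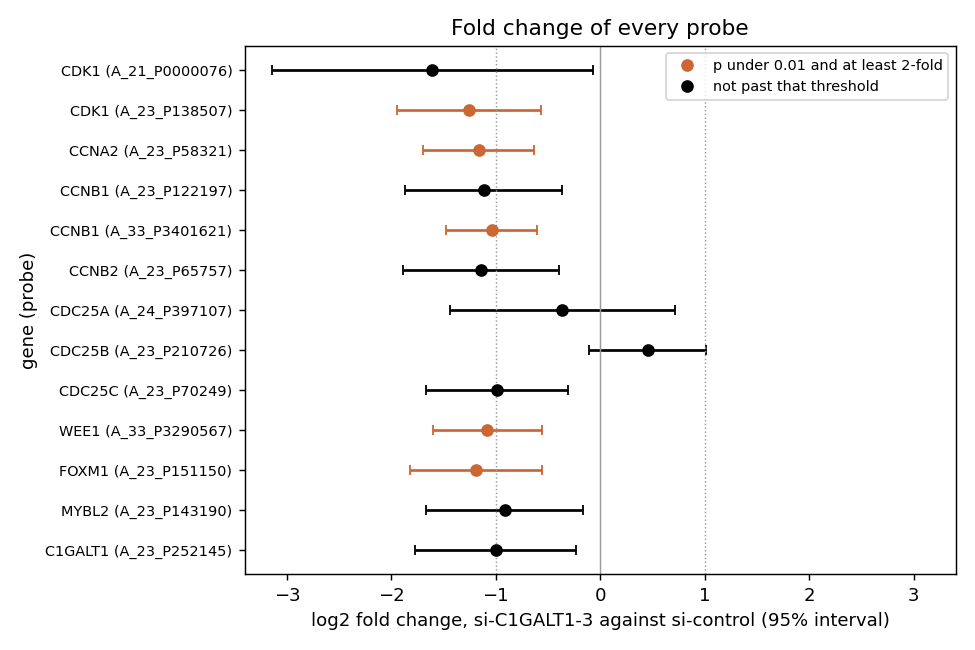
Log2 fold change, si-C1GALT1-3 against si-control, with its 95% interval from limma, for the 12 probes of the mitotic entry genes and for C1GALT1 (orange, p under 0.01 and at least 2-fold; dotted lines, 2-fold). The intervals of CDC25A and CDC25B include 0, and those of the other 10 member probes lie below it.

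The size of the differences varied between slides. The median over the members was -0.58 within the slide of replicates 1 and -1.03 within that of replicates 2 (8 genes with both values). Within that of replicates 3 it was -1.71. The medians of all probes were -0.00, 0.00 and -0.00, but quantile normalization holds them near 0, so they are no check on the slides. The SDs of the differences over all probes were 0.75, 0.75 and 0.71. By the brightest probe, 9 genes had a fitted difference below 0. In all 9 the slide of replicates 1 gave the smallest fall or, for CDC25A, a rise. For 8 of these 9, the slide of replicates 3 gave the largest, the exception being WEE1. CCNB1 and CCNB2 lacked the slide of replicates 2, and of the 7 genes with all 3 slides, 6 followed this order. The second CCNB1 probe did not, with differences of -0.98, -1.22 and -0.91 within the slides of replicates 1 to 3. C1GALT1 itself differed by -0.47, -1.05 and -1.49 within the same slides. CDK1 differed by -0.64, -1.24 and -1.89, and MYBL2 by -0.22, -0.79 and -1.74. With 3 slides no relation between C1GALT1 and these genes could be tested. The order was not particular to the members. Of the 39 late targets described below, the slide of replicates 1 gave the smallest fall (for ECT2, a rise) in 38. For 35 of the 39, the slide of replicates 3 gave the largest, over the slides each gene had.

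**Figure D4:**
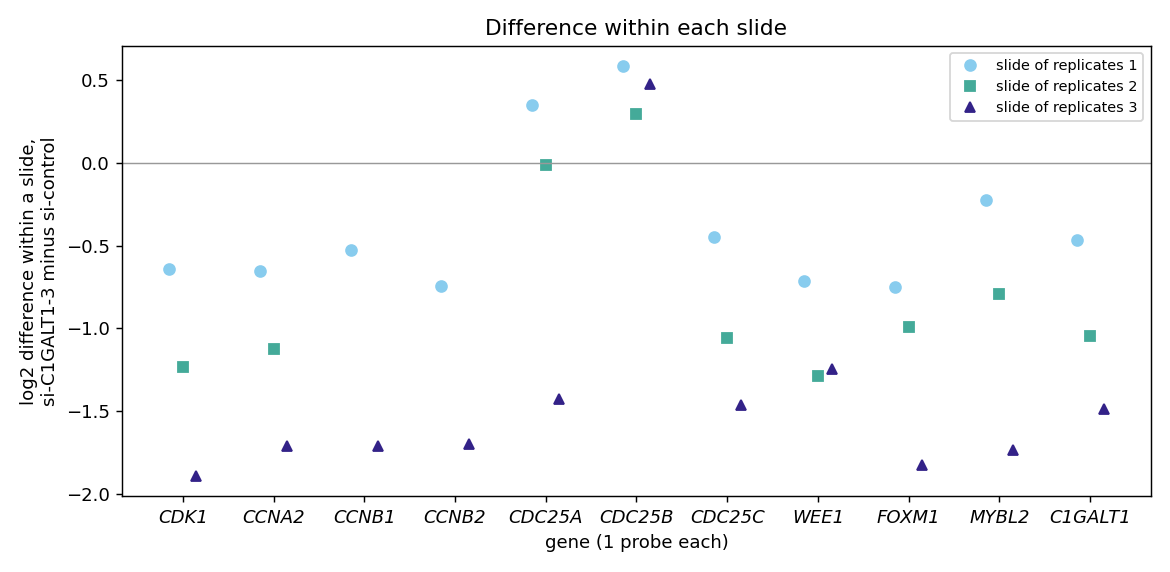
Difference in log2 signal between the si-C1GALT1-3 and the si-control array of each slide, for 1 probe per mitotic entry gene and for C1GALT1. The 3 slides differ in size but not in sign for every gene except CDC25A, and the slide of replicates 2 has no value for CCNB1 and CCNB2.

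Promoter sequence was set beside these values because 9 of the 10 genes had a fitted difference below 0, of which 4 passed. RefSeq windows of 250 bases before to 50 after a start site (GRCh38.p14) were matched for 8 of the 10 genes, not for FOXM1 and WEE1, and gave 15 windows. Motifs were searched on both strands as the exact letters given, so any other spelling of a motif was not counted. They do not overlap each other in the stretches shown. The CHR (cell cycle genes homology region, TTTGAA), which MuvB complexes bind, lay in windows of 3 of the 8 genes, CDK1, CCNB2 and CDC25C. Counted by window, it lay in 5 of the 15 and in 15.2% of all 35116 windows. Windows of a gene can overlap, so a site can be counted more than once, as was the CHR of CDC25C. The CCAAT box (CCAAT), bound by NF-Y, lay in windows of 7 of the 8, all but MYBL2, which is 10 of the 15 windows, and in 34.6% of all windows. The stretches below hold these motifs upstream of the start site in 6 genes with lower means and in CDC25B, which had a higher one, written 5′ to 3′ along the gene with CHR and CCAAT letters (either strand) in capitals.
CDK1 (chr10:60778390-60778477, plus strand): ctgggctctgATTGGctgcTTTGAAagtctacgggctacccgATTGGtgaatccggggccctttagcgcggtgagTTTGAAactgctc
CCNA2 (chr4:121823925-121823949, minus strand): gagcgctttcATTGGtccatttcaa
CCNB1 (chr5:69167053-69167109, plus strand): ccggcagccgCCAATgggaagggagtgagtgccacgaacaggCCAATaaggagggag
CCNB2 (chr15:59105016-59105132, plus strand): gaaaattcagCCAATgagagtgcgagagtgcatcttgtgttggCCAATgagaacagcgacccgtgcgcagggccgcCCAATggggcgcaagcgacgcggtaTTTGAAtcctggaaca
CDC25A (chr3:48188461-48188537, minus strand): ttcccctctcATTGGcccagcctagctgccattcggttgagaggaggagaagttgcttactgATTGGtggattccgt
CDC25C (chr5:138331819-138331899, minus strand): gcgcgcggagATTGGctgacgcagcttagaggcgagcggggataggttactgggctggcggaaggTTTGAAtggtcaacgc
CDC25B (chr20:3796227-3796251, plus strand): ccgctaccccATTGGtggcgtccgg

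In CDK1 and CCNB1 the starts of neighbouring CCAAT boxes lay 32 bases apart, and 2 such gaps in CCNB2 were of 33 bases, a spacing looked at after the sequences were seen. Other neighbouring boxes lay 124 bases apart in CCNB2, 52 in CDC25A, and 17 and 188 in CDC25C. Of all windows, 10.8% held at least 2 CCAAT boxes and 1.3% held a pair between 31 and 34 bases apart. The E2F core (GCGGGAA) was found in windows of 2 of the 8 genes, CDC25B and CDC25C (3 of the 15 windows), and in 6.55% of all windows, and a forkhead sequence (TAAACA) in 1 of the 8, CDK1 (1 of the 15 windows), and in 12.3% of all windows. The E2F core of CDC25C was a single site counted in overlapping windows. All these matches describe the letters of the windows and say nothing of binding in AGS cells.

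The genes around the 10 members were read as 4 lists, which were chosen with earlier results of these data known. The first holds the rest of the cyclin-CDK1 circuit, of which 19 of 21 genes were measured. Of these, 3 passed as lower, none passed as higher and 16 did not pass, while 14 had a fitted difference below 0. Of all 22438 named genes, 299 passed as lower, 466 as higher and 10677 had a fitted difference below 0. The median of the list was -0.35 against 0.02 over all named genes. WEE2 was well above background on no array. ARPP19, whose phosphorylated form inhibits the phosphatase PP2A-B55 and so protects CDK1 substrates, had the largest fall. It read 11.58, 11.67 and 11.82 in si-control and 9.89, 10.05 and 10.19 in si-C1GALT1-3, and fell by 1.64 on the log2 scale to 32.0% of control (limma, adjusted p = 0.0499, and 0.180 with the replicate block). Its paralog ENSA, which acts on the same phosphatase, had the highest difference of this list, 0.49 ± 0.19 (log2, SE), under 2-fold but with an unadjusted limma p under 0.05 (adjusted p = 0.343). The CDK-binding subunits CKS1B, measured on 5 arrays, and CKS2 were the others that passed, with falls of 1.19 and 1.21 on the log2 scale. Neither passed with the replicate block, which left 1 of the 3 calls, ARPP19.

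The second list holds 13 genes of the MuvB and RB-family complexes, which hold late cell cycle genes silent or, with MYBL2 and FOXM1, switch them on. Its median was 0.17. LIN9, a MuvB core subunit, fell by 1.11 on the log2 scale, from 10.99, 11.15 and 11.15 to 10.08, 10.22 and 9.64 (limma, adjusted p = 0.118). E2F5, an E2F that binds with the RB relatives in quiescent cells, rose by 1.23, from 9.06 and 9.41 on its 2 si-control arrays to 10.40, 10.41 and 10.60 (limma, adjusted p = 0.124). The other 11 genes did not pass.

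The third list holds late cell cycle targets of this machinery, of which 39 of 40 were measured. Here 19 passed as lower, against 299 of all 22438 named genes, while none passed as higher and 20 did not pass. All 39 had a fitted difference below 0, against 10677 of all named genes, with a median of -1.16. PRC1, which bundles the microtubules of the central spindle, fell most, from 10.63, 11.25 and 10.64 to 8.84, 9.26 and 7.79, or to 21.5% of control (limma, adjusted p = 0.137). HJURP, the chaperone of the centromeric histone CENP-A, fell by 2.01, BIRC5 (survivin) by 1.58 and CDC20, an activator of the anaphase-promoting complex, by 1.56 on the log2 scale. ECT2, which activates RhoA in cytokinesis, differed least, by -0.27 ± 0.19 (log2, SE), with overlapping groups. With the replicate block 12 of the 39 passed.

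The fourth list holds 15 genes that brake the cell at G2, among them p53 targets and checkpoint kinases. None passed in either direction by limma, with or without the replicate block, or by Student's test. An unadjusted limma p under 0.05 was reached by 1 of the 15, and by 2 with the block, and the median was -0.04. PKMYT1, a WEE1 relative that also phosphorylates CDK1 and belongs to the first list too, was lowest at -0.60 ± 0.17 (log2, SE; limma, adjusted p = 0.245). BTG2, an antiproliferative p53 target, was highest at 0.83 ± 0.35 (limma, adjusted p = 0.381). It was higher within each slide, by 1.05, 0.59 and 0.85, and with the replicate block its SE was 0.15 and its unadjusted limma p was under 0.01, at less than 2-fold (limma, adjusted p = 0.191).

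The study's own table of selected genes from these arrays names 4 of the 10 members, CDK1, CCNA2, CCNB1 and CCNB2, and also ARPP19, CKS1B, LIN9 and E2F5. That choice was made on the same samples, so it is no independent evidence of their direction. Among the 4 members that passed as lower by their brightest probe, WEE1 and FOXM1 are not in that table. Of the 19 late targets that passed as lower, 7 are not. Apart from the arrays, the study reports quantitative RT-PCR of selected genes, with CDK1 among its primers. It also reports a G1 arrest by flow cytometry in AGS cells given the same siRNA. Neither was re-examined here.

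**Figure D5:**
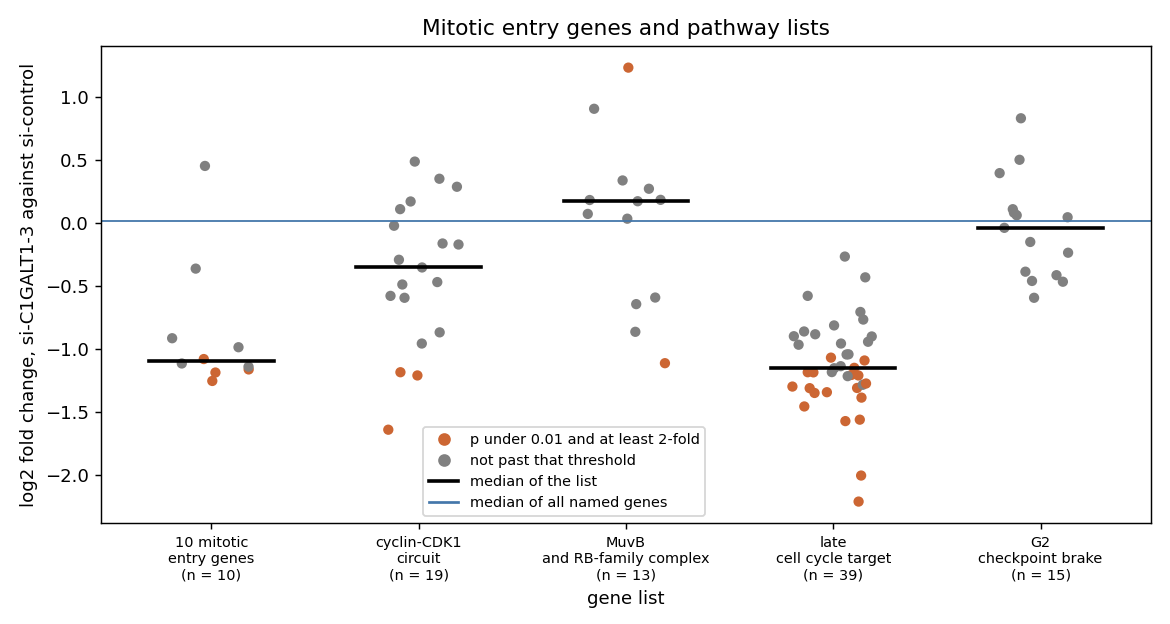
Log2 fold change, si-C1GALT1-3 against si-control, of each gene (1 probe each) of the mitotic entry genes and of the 4 pathway lists (orange, p under 0.01 and at least 2-fold; black bars, list medians; blue line, median of all named genes). The mitotic entry genes and the late targets have medians of -1.10 and -1.16, and the other 3 lists have medians between -0.35 and 0.17; 5 genes (AURKA, CCNF, CKS1B, CKS2 and PKMYT1) appear in 2 lists.

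Across the 6 arrays, the named genes whose log2 signal followed CDK1 most closely, among 14159 compared, were MELK, DDIAS, TPX2, LHFPL2 and CENPU, with Pearson's r of 0.998, 0.998, 0.996, 0.996 and 0.994. These points share the division into groups and the slides, so the values are a description. Of the members compared, CDC25C came closest to CDK1 (r = 0.983, rank 31), followed by CCNA2 (0.971) and WEE1 (0.971), then FOXM1 (0.924) and MYBL2 (0.914). CDC25A (0.441) and CDC25B (-0.446) did not follow it. The brighter CCNB1 probe and the CCNB2 probe were not compared because each lacks 1 array, and the second CCNB1 probe had an r of 0.913 with CDK1.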

How the data were processed

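RNA of AGS cells (3 si-control and 3 si-C1GALT1-3 samples) had been hybridized to single-colour Agilent arrays. The authors deposited Agilent Feature Extraction (version 10.5.1.1, per the labels) output per array, whose processed intensity is corrected for background within the array but not normalized between arrays, and a series table of background-subtracted intensity, used as an alternative. No columns of fold changes or p-values were used.

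From these, log2 of the processed intensity was taken. Control spots were left out, and spots flagged as outliers (100 to 424 per array) and the central rectangle of si-control replicate 2 were set to missing. Arrays were quantile normalized, spots of a probe averaged, and groups compared with limma 3.58.1 in R 4.3.3, with Benjamini-Hochberg adjustment over 58195 probes. Scripts were tested on simulated data. The number of arrays, 3 per group, limits the precision. A gene with several probes was represented by the one with the highest mean log2 signal. Probes were named through RefSeq accessions, giving 31104 probes with a symbol and 22439 symbols.

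Genes named are the 10 members, C1GALT1, the largest fall and rise of each list and the 5 genes most correlated with CDK1; HJURP, BIRC5, CDC20, CKS1B and CKS2, the marker genes named, the second CCNB1 probe beside CDK1 and the differences between members were chosen after values were seen. The members and lists were chosen with earlier results of these data known.

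Same-numbered replicates share a slide, and their deviations from the group means correlated at 0.198, 0.215 and 0.329, so the number was taken as pairing and fitted as a replicate block in an alternative. The other alternatives were no masking, scaling to the 75th percentile, no normalization between arrays, normexp (offset 50) on the median spot signal, the series table with a floor of 10, leaving out dim probes, keeping outlier spots, a trended robust prior, Student's equal-variance test per probe (the study's array methods name limma), the median over probes, and leaving out each array.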

Additional observations from a re-analysis of the deposited data

How the results depend on the processing

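Of 170 values of the 10 genes under an alternative, 168 kept their sign. The threshold was passed in the main fit alone for 22 and in the alternative alone for 10, and the others kept their side of it. The exceptions in sign were CCNB2 without masking (1.46 on the log2 scale) and CDC25A without si-control replicate 3 (0.13, in a range over left-out arrays of -0.69 to 0.13). With the replicate block, which pairs samples of a slide, 1 member (WEE1) passed in place of 4, 1 circuit gene and 12 late targets. Student's test per probe called 2 members (CCNA2 and WEE1) and 11 late targets, with 336 probes lower and 560 higher in place of 577 and 961; after Benjamini-Hochberg adjustment at 0.05 it left 2 probes, against 49 with limma and 0 with the block. Without normalization between arrays, no member, 1 circuit gene, 1 MuvB or RB-family gene, 5 late targets and 295 lower probes passed. The median over probes left 1 MuvB or RB-family gene. Probes called higher were 474 without masking and 497 with normexp. C1GALT1 (-1.0) passed with dim probes left out.

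Leaving out 1 array gave 1 to 6 members, 1 to 3 circuit genes, 1 to 3 MuvB or RB-family genes and 11 to 21 late targets. The member count was 6 without si-control replicate 1, 1 without si-control replicate 2, 2 without si-control replicate 3, 4 without si-C1GALT1-3 replicate 1, 2 without si-C1GALT1-3 replicate 2 and 1 without si-C1GALT1-3 replicate 3. The late targets were 11 without si-control replicate 2, and 12 without si-control replicate 3 or without si-C1GALT1-3 replicate 3. CCNA2 passed in every one of these 6 fits. The circuit count was 1 without si-C1GALT1-3 replicate 2, and the MuvB or RB-family count 1 without si-C1GALT1-3 replicate 3. Of all calls, 62.5% were higher, against 40.2% without masking and 72.6% without normalization. Scaling to the 75th percentile moved the median of all probes to -0.11. The causes were not tested.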

Other observations

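Pairs of members with opposed or shared roles were compared through the difference of their log2 signals on each array, over 9 pairs picked after the values were seen. CDC25B minus CDC25C was 3.52, 3.57 and 3.19 in si-control and 4.55, 4.93 and 5.13 in si-C1GALT1-3, a mean difference of 1.44 on the log2 scale between groups that did not overlap (two-sided exact permutation p = 0.1, the smallest that 3 against 3 arrays allow; adjusted p = 0.45 over the 9 pairs). FOXM1 minus MYBL2 differed by -0.27, also without overlap (two-sided exact permutation p = 0.1, adjusted p = 0.45). CDK1 minus WEE1, the kinase against its inhibitor, differed by -0.17, with overlapping groups (two-sided exact permutation p = 0.5, adjusted p = 0.643).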
